A study of Mus musculus with 12 samples.

Results

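The genes described here are the LAR-type receptor phosphatases and the proteins that bind them. They are 10 of the 24525 genes in the count tables: the receptor phosphatases Ptprd, Ptprs and Ptprf, the liprins Ppfia1, Ppfia2, Ppfia3 and Ppfia4, and the trans-synaptic binding partners Ntrk3, Il1rapl1 and Il1rap. Ptprd was chosen by the study as a candidate on these same cultures, because its transcript level and its m6A sites were higher in Ythdf2-/- neurospheres. Its values are therefore given as a description, without a p-value. The other 9 genes were listed for their known relation to Ptprd, and each was looked up by its symbol in every library.

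LAR-type receptor phosphatases are single-pass membrane proteins with immunoglobulin and fibronectin repeats outside the cell and a tandem pair of phosphatase domains inside it. They guide growing axons, and at synapses they sit mainly on the presynaptic side, where they organise the nerve terminal by binding adhesion proteins of the partner cell. The membrane-distal phosphatase domain has little catalytic activity of its own and serves as the dock for liprins, scaffold proteins that gather the active zone. The same receptors bind heparan and chondroitin sulphate proteoglycans and are expressed in neural progenitors before synapses form.

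The libraries came from neurospheres, floating cultures of neural stem/progenitor cells (NSPCs), grown from the brain of E14.5 C57BL/6 embryos and taken at passage 1 in medium with 20 ng/ml EGF and 10 ng/ml bFGF. The comparison is of 3 wild-type with 3 Ythdf2-/- input libraries, made from mRNA broken to about 100 nt that saw no antibody, and the 6 m6A-IP samples were not analysed here. Ythdf2 encodes a reader protein that binds m6A-modified mRNA and promotes its decay. The Ythdf2-/- embryos lacked the start of the gene in every tissue, since LoxP sites around its first exon had been recombined by a ubiquitous Cre, so the loss was not limited to neural cells. The labels number the libraries within each genotype but do not say whether each number is 1 embryo, and p-values measure the spread between these libraries.

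The libraries held 11029827 to 13185778 counted reads. Ythdf2 was at 71.9 to 91.4 counts per 1000000 reads (CPM) in the wild-type libraries and at 11.1 to 14.7 CPM in the Ythdf2-/- libraries, which checks the labels. All CPM values were scaled with TMM factors, which correct for the make-up of each library. Wild-type library 3 stood apart from the other 5. Wild-type libraries 1 and 2 were the closest pair, with a chi-square per degree of freedom of 4.57 between their counts against 22.5 to 140.1 for every other pair. Values without wild-type library 3 rest on that pair as the whole wild-type group, so their SE and counts without overlap may understate the spread between replicates. The 3 most abundant progenitor markers were high in most libraries, with Vim at 1436 to 3036 CPM, Fabp7 at 760.1 to 2409 CPM and Nes at 264.2 to 1212 CPM, and wild-type library 3 gave the lowest value of each, although 7 of the 12 progenitor markers were highest there. The oligodendrocyte lineage markers summed to 5456 CPM in wild-type library 3 and to between 1809 and 2235 CPM in the other 5, and the neuronal markers to 3057 CPM against 1805 to 2210 CPM. Reads on the 4 Y-linked genes summed to 95.1 and 125.0 CPM in wild-type libraries 1 and 2 and to 172.7 CPM in Ythdf2-/- library 3, and to at most 0.0915 CPM in the rest. The main results below are also given without wild-type library 3, because it stood apart. That choice keeps Y-linked sums of 95.1 and 125.0 CPM in wild type, while Ythdf2-/- library 3 alone reaches such a level. Genotype and Y-linked reads are then more closely tied, and the part of Y-linked reads in those values was not tested.

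The LAR-type genes are close relatives, so their sequences were compared to see whether reads could be shared between them. Ptprd lies at chr4:75941237-78211742 and Ptprf at chr4:118208213-118291405, both on the minus strand of mm10 (RefSeq annotation of GRCm38.p6), on the chromosome that also carries Ythdf2 at chr4:132184916-132212256. Ptprs lies at chr17:56412426-56476561, minus strand. The coding sequences were 68.6% identical between Ptprd and Ptprs, 66.7% between Ptprd and Ptprf and 71.5% between Ptprs and Ptprf, and the longest identical run was 27 bases. No stretch of 50 bases was shared between any pair of the 10 genes. The 90 bases in which the 3 receptor phosphatases are most alike are shown, 5′ to 3′ as in the mRNA, with the 19 positions at which they differ in capitals. The stretch is joined from 2 exons and lies between the repeats of the catalytic motif, inside the part that encodes the membrane-distal phosphatase domain. Its genomic span is chr4:75955312-75956364 in Ptprd, chr17:56414981-56416939 in Ptprs and chr4:118211455-118211758 in Ptprf.
Ptprd: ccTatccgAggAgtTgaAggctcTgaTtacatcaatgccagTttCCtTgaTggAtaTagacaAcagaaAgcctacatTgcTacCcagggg
Ptprs: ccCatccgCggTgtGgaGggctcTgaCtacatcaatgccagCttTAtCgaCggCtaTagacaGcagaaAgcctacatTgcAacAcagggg
Ptprf: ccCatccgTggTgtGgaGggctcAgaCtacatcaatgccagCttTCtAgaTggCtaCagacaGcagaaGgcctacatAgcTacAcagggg
Even here no read of 50 bases would match more than 1 of the genes without a mismatch. No member shared exon sequence with another gene on its own strand. Il1rap shared 353 bases of exon with Gm20319 on the opposite strand, and since the strand setting of the counting is not given, a part of its count could come from that gene.

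The members ranged widely in abundance in these cells. To compare genes, CPM was divided by the length of the merged exons (CPM per kb). Ptprs was the most abundant member, at 76.1 ± 34.8 CPM per kb in wild type and 77.8 ± 22.2 in Ythdf2-/- (SD, n = 3 each). Ptprf followed at 27.5 ± 5.33 and 25.0 ± 3.72 CPM per kb, and Ppfia1 at 15.5 ± 0.709 and 15.01 ± 0.763. Ntrk3, Il1rap, Ptprd and Ppfia3 came next, with wild-type means of 10.6, 5.38, 3.34 and 3.16 CPM per kb. Ppfia2 was at 0.459 ± 0.220 CPM per kb in wild type, and Il1rapl1 and Ppfia4 were nearly silent at 0.102 and 0.0937. Over the 6 libraries the ranges of Ppfia1 and Ntrk3 overlapped, as did those of Il1rap with Ptprd, Ptprd with Ppfia3, and Il1rapl1 with Ppfia4. The other neighbours in this order did not overlap. With the gene lengths of the deposited tables, which are shorter for some genes, Il1rap was at 16.0 instead of 5.38 CPM per kb in wild type and Ntrk3 at 15.2, level with Ppfia1 at 15.6. Il1rapl1 moved most as a ratio, from 0.102 to 0.350 CPM per kb. With these lengths the ranges of Ptprf and Ntrk3, of Ppfia1 and Il1rap, and of Ppfia2 and Il1rapl1 also overlapped, while those of Il1rap and Ptprd and of Il1rapl1 and Ppfia4 did not.

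**Figure D1:**
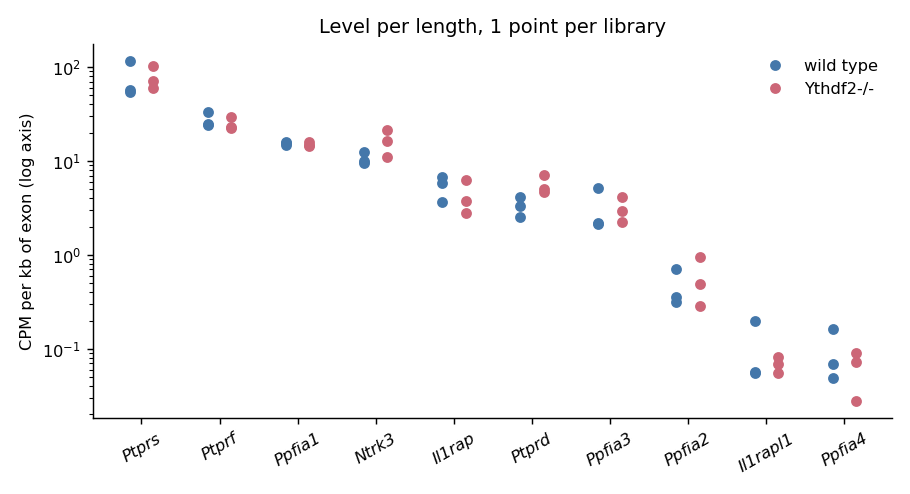
Level of each member per kb of merged exon in the 6 input libraries, on a log axis, with 1 point per library and the members ordered by their mean. Ptprs lies above Ptprf and Ptprd in every library, and Ppfia4 and Il1rapl1 lie lowest, at 0.0275 to 0.195 CPM per kb.

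Among the receptor phosphatases, Ptprd was higher in every Ythdf2-/- library than in any wild-type library, while the libraries of Ptprs and Ptprf overlapped between genotypes. Ptprd was at 23.2, 29.9 and 38.1 CPM in wild-type libraries 1 to 3 and at 42.6, 46.1 and 63.9 CPM in Ythdf2-/- libraries 1 to 3, from 271 to 794 reads. The groups did not overlap, and the closest libraries were wild-type 3 and Ythdf2-/- 1. The log2 fold change was 0.74 with a standard error (SE) of 0.246. It was 0.94 (SE 0.216) without wild-type library 3.

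Ptprs, which encodes PTPσ, a receptor for proteoglycans and for TrkC, was at 400.3, 382.0 and 810.8 CPM in wild type and at 493.0, 716.5 and 419.1 CPM in Ythdf2-/-. Wild-type library 3 and Ythdf2-/- library 2 were high and the other 4 were low, so the spread lay within each genotype. The log2 fold change of Ptprs was 0.03 (SE 0.366, 95% interval -0.85 to 0.92, edgeR adjusted p = 0.999). Without wild-type library 3, every Ythdf2-/- library was above both wild-type libraries, and the value was 0.47 (SE 0.237, edgeR adjusted p = 0.364).

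Ptprf, which encodes LAR itself, was at 190.2, 183.4 and 257.1 CPM in wild type and at 171.9, 223.8 and 177.5 CPM in Ythdf2-/-. The same libraries, wild-type 3 and Ythdf2-/- 2, were the highest of their groups, and the groups overlapped. Its log2 fold change was -0.14 (SE 0.191, 95% interval -0.60 to 0.32, edgeR adjusted p = 0.999) and 0.03 without wild-type library 3.

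Within the family, Ptprd stayed the minor transcript in every library. Per length, it made up 3.003, 4.005 and 2.71% of the summed level of the 3 receptor phosphatases in wild type and 4.79, 3.70 and 7.77% in Ythdf2-/-. This share overlapped between genotypes, because Ythdf2-/- library 2, with much Ptprs, fell below wild-type library 2. Ptprs made up 66.5 to 75.5% of the sum and Ptprf 21.4 to 29.3%. The family sum was 82.0 to 154.0 CPM per kb in wild type and 90.3 to 137.0 in Ythdf2-/-, and the higher end of both ranges was set by Ptprs in wild-type library 3 and Ythdf2-/- library 2.

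**Figure D2:**
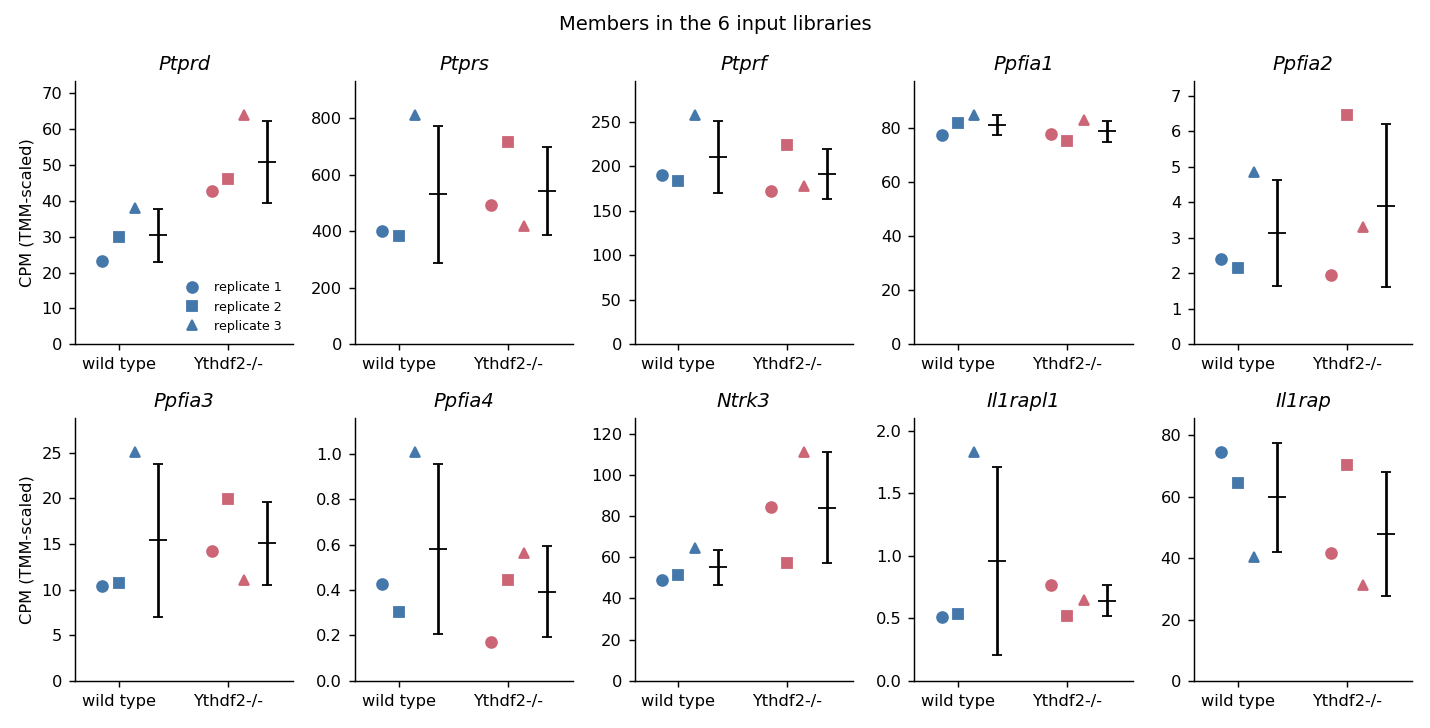
CPM of each of the 10 members in the 6 input libraries, with 1 panel per gene and its own axis from 0. Marker shape gives the replicate number within its genotype, and the black bars give the mean and SD of each genotype (n = 3). Ptprd is the member whose Ythdf2-/- libraries (42.6 to 63.9 CPM) all lie above the wild-type ones (23.2 to 38.1 CPM).

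The liprins showed no change that passed the test. Ppfia1 encodes liprin-α1, the most widely expressed liprin, which is also found at focal adhesions. It was at 77.5, 82.0 and 84.8 CPM in wild type and at 78.1, 75.4 and 83.3 CPM in Ythdf2-/-. It was the steadiest member, since its highest library was 1.13 times its lowest. Its log2 fold change was -0.04 (SE 0.111, 95% interval -0.31 to 0.22, edgeR adjusted p = 0.999), the narrowest interval among the members.

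Ppfia2 and Ppfia3 encode liprin-α2 and liprin-α3, the liprins most typical of neurons and their active zones. Ppfia3 was at 10.4, 10.8 and 25.1 CPM in wild type and at 14.2, 19.9 and 11.02 CPM in Ythdf2-/-. As for Ptprs, wild-type library 3 and Ythdf2-/- library 2 were highest. Its log2 fold change was -0.03 (SE 0.422, 95% interval -1.05 to 0.99, edgeR adjusted p = 0.999) and turned to 0.51 without wild-type library 3 (edgeR adjusted p = 0.383).

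Ppfia2 was at 2.40, 2.14 and 4.85 CPM in wild type and at 1.96, 6.44 and 3.30 CPM in Ythdf2-/-, from 23 to 87 reads a library. The groups overlapped, with the highest and the lowest library both Ythdf2-/-. The log2 fold change was 0.33 (SE 0.546, edgeR adjusted p = 0.999), and its 95% interval, -0.995 to 1.65, covers both a fall and a rise. Without Ythdf2-/- library 2 it was -0.23, and without wild-type library 3 it was 0.79 (edgeR adjusted p = 0.487).

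Ppfia4, which encodes liprin-α4, had 5, 4 and 11 reads in wild type and 2, 6 and 7 reads in Ythdf2-/-. It was below the filter on low counts and was not tested, and no difference between genotypes could be seen at this depth. Ppfia1 made up 72.8 to 85.8% of the summed liprin level per length. The share of Ppfia3 was 12.1 to 23.3%, highest in wild-type library 3. The liprin sum itself was 17.3 to 22.2 CPM per kb in wild type and 18.1 to 19.4 in Ythdf2-/-.

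Among the trans-synaptic partners, Ntrk3 had the second largest fold change of the members with all 6 libraries (the third, after Ppfia2, without wild-type library 3) and Il1rap was lower on average. Ntrk3 encodes TrkC, the receptor for neurotrophin-3, which also binds PTPσ across the synapse through its extracellular part. Ntrk3 was at 48.9, 51.6 and 64.7 CPM in wild type and at 84.2, 57.0 and 111.0 CPM in Ythdf2-/-, from 571 to 1380 reads. Ythdf2-/- libraries 1 and 3 were above all wild-type libraries, while Ythdf2-/- library 2 lay between wild-type libraries 2 and 3.

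The log2 fold change of Ntrk3 was 0.61 (SE 0.263, 95% interval -0.02 to 1.25), which did not pass the test (unadjusted p = 0.0571 and adjusted p = 0.999 by edgeR). With that wild-type library 3 left out, the Ythdf2-/- libraries were all higher and the value was 0.74 (edgeR adjusted p = 0.265). It fell to 0.36 when Ythdf2-/- library 3, its highest, was left out. In limma-voom with a quality weight for each library, in which wild-type library 3 had a weight of 0.0901, it was 0.75 (SE 0.142, adjusted p = 0.0422). That fit gave the one call among the 7 members tested other than Ptprd, beside 2.54% of all 13112 genes called higher and 2.28% called lower. Over all its alternatives the adjusted p of Ntrk3 ran from 0.0422 to 0.99998.

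Il1rap encodes the shared accessory chain of the interleukin-1 receptors, of which a neuronal form binds PTPδ, the product of Ptprd. It was at 74.5, 64.5 and 40.3 CPM in wild type and at 41.7, 70.4 and 31.4 CPM in Ythdf2-/-. Wild-type libraries 1 and 2 and Ythdf2-/- library 2 were high and the other 3 were low, a split that crosses the genotypes. The log2 fold change was -0.32 (SE 0.360, 95% interval -1.19 to 0.55, edgeR adjusted p = 0.999), and -0.54 (edgeR adjusted p = 0.444) without wild-type library 3. With quality weights it was -0.70 (limma-voom adjusted p = 0.0606).

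Il1rapl1, an X-linked gene whose protein binds PTPδ and is known for its loss in intellectual disability, had 6, 7 and 20 reads in wild type and 9, 7 and 8 in Ythdf2-/-. Wild-type library 3 held more than the others, and the gene was below the filter and not tested.

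**Figure D3:**
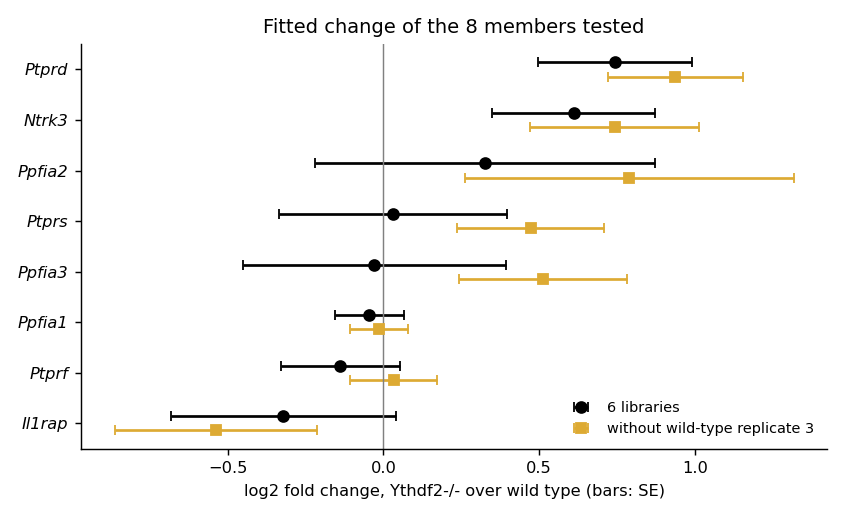
Fitted log2 fold change (Ythdf2-/- over wild type, bars are SE) of the 8 members that passed the filter, with all 6 libraries in black and without wild-type library 3 in yellow. Ptprd and Ntrk3 lie to the right in both fits, at 0.74 and 0.61 with 6 libraries, while Ptprs and Ppfia3 move from 0.03 and -0.03 to 0.47 and 0.51.

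In all, 8 of the 10 members passed the filter. Of the 7 given a p-value, 0 were called at an adjusted p under 0.05 by edgeR, as were 0 (0%) of the 13112 genes tested. Ythdf2 itself, the deleted gene, was not called by that fit (log2 fold change -2.66, edgeR adjusted p = 0.0547). A gene that was not called is therefore not shown to be unchanged. At an unadjusted p under 0.05 the count was 0 of 7 by edgeR, where 3.63% of all genes passed. DESeq2 also called 0 of the 7, against 0.236% of all genes. None of the 7 had libraries that did not overlap between genotypes, while 5.24% of all genes were higher and 4.92% lower in every Ythdf2-/- library. The median log2 fold change of the 7 members other than Ptprd was -0.03 (0.00 with Ptprd), and that of all genes tested was -0.01. Without wild-type library 3, the median of these 7 members was 0.47 (0.49 with Ptprd) and that of all genes 0.01. In that smaller set Ptprs, Ppfia3 and Ntrk3 also lay above both wild-type libraries in every Ythdf2-/- library, 3 of the 7, where 18.9% of all genes did so and 20.0% lay below. None of the 7 was called by edgeR in that set, where 0.0151% of all genes were.

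The members fell into different patterns across the libraries. Ptprs and Ppfia3 ran nearly in parallel (Pearson r = 0.99 over the 6 libraries, on log2 CPM), as did Ptprs with Ptprf (r = 0.88) and with Ppfia2 (r = 0.82). Each of these 4 genes had its 2 highest libraries in wild-type 3 and Ythdf2-/- 2. The summed neuronal markers were also highest in those libraries, at 3057 and 2210 CPM against 1805 to 1933 CPM in the other 4. So were the summed oligodendrocyte lineage markers, at 5456 and 2235 CPM against 1809 to 2019 CPM. Single markers did not all follow that sum, although 11 of the 15 were highest in wild-type library 3. Olig1 was lowest there, at 547.1 CPM, against 1089 CPM in Ythdf2-/- library 2. Olig2 was lowest in these same libraries, at 323.8 CPM in wild-type 3 and 416.7 CPM in Ythdf2-/- 2. The part of either cell type in these levels was not tested, and in bulk RNA fewer cells of a type and less RNA per cell cannot be told apart. Ptprd followed Ptprs weakly (r = 0.26) and Ntrk3 more closely (r = 0.85). Ntrk3 ran against Il1rap (r = -0.91). All these correlations are over the same 6 libraries, share their depth and make-up, and are a description.

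**Figure D4:**
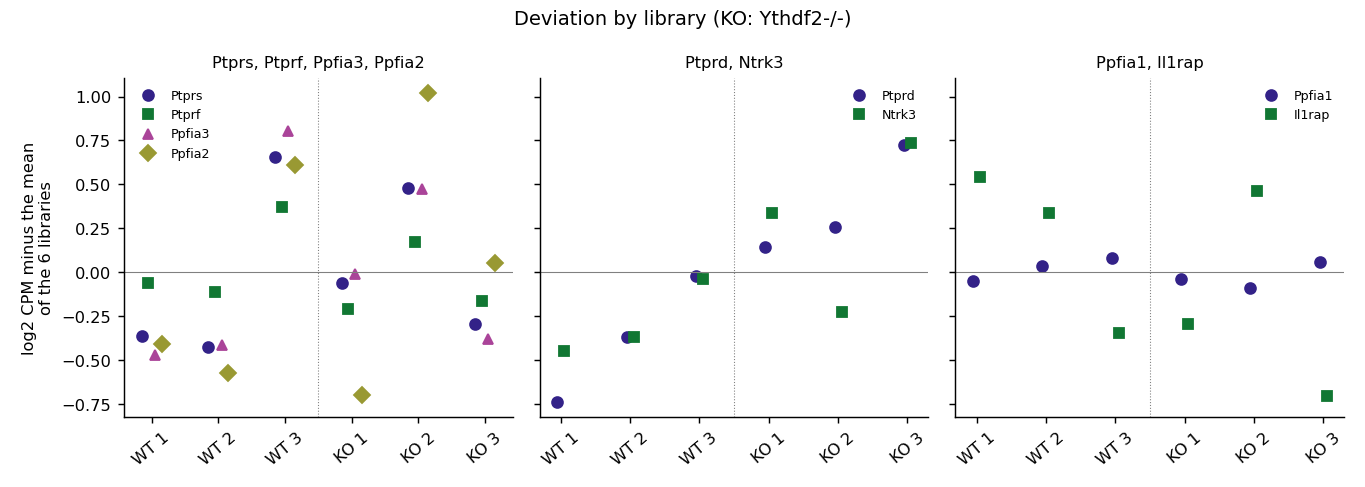
Deviation of each tested member from its own mean over the 6 input libraries (log2 CPM), in 3 panels, with WT for wild type and KO for Ythdf2-/-. In the left panel all 4 genes are high in wild-type library 3 and Ythdf2-/- library 2, in the middle Ptprd and Ntrk3 share their highest library (Ythdf2-/- 3) and their lowest (wild-type 1), and on the right Ppfia1 stays near 0.

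The 5 genes whose pattern over the 6 libraries was most like that of Ptprd were Lrrc4c (r = 0.99), Slitrk2, Ubqln2 and Aldh1l2 (r = 0.98 each) and Trmt12 (r = 0.97). These 5 were picked for this likeness to Ptprd, itself chosen as higher in Ythdf2-/-. Their difference between genotypes therefore follows from the choice and is not a separate result. Lrrc4c, which encodes the netrin-G ligand NGL-1, was at 38.1 to 52.3 CPM in wild type and at 57.3 to 68.0 CPM in Ythdf2-/-. Slitrk2 encodes a synaptic adhesion protein of a family that binds LAR-type phosphatases, and was at 44.7 to 52.9 and 57.5 to 67.7 CPM. In all, 80 of the 13111 other genes had an r above 0.9 with Ptprd. Ntrk3 ranked 165 of 13111 by this measure, Ppfia2 2583 and Il1rap 12561.

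The other binding partners cover 36 genes for adhesion ligands, proteoglycans, liprin-β scaffolds, active-zone proteins and cytoplasmic partners. Of these 32 were tested, 14 with a higher and 18 with a lower fitted value in Ythdf2-/-, and 0 were called by edgeR (3 at an unadjusted p under 0.05, where 3.63% of all genes passed, and 0 by DESeq2). Their median log2 fold change was -0.04. The most abundant were Ctnnb1, the cadherin-linked β-catenin (1115 to 1200 CPM), Kif1a, a kinesin that carries synaptic vesicle precursors and binds liprin-α (469.2 to 1079 CPM), and the proteoglycan Sdc3 (237.4 to 939.0 CPM). Kif1a was highest and Sdc3 lowest in wild-type library 3.

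Libraries of 4 of these partners did not overlap, 2 higher and 2 lower in Ythdf2-/- (6.25% each, near the 5.24% and 4.92% of all genes). Leaving out wild-type library 3 gave 14 higher and 2 lower of the 32, where 18.9% and 20.0% of all genes were so. Ppfibp1, which encodes the liprin partner liprin-β1, was at 23.5, 22.4 and 61.7 CPM in wild type and at 14.8, 17.2 and 12.1 CPM in Ythdf2-/-, a log2 fold change of -1.29 (SE 0.437, edgeR adjusted p = 0.999). It was -0.64 without wild-type library 3. Erc2, an active-zone protein that binds liprin-α, was at 6.25, 6.41 and 23.9 CPM against 4.01, 4.59 and 6.03 CPM (log2 fold change -1.32, SE 0.590). It was -0.37 without wild-type library 3.

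Gpc6, a glypican, was at 32.8, 34.6 and 25.8 CPM in wild type and at 43.3, 36.5 and 61.2 CPM in Ythdf2-/- (log2 fold change 0.60, SE 0.233, 0.48 without wild-type library 3). Slitrk2, named above, was the fourth, with a log2 fold change of 0.33 (SE 0.133). None of the 4 was called by edgeR (adjusted p = 0.999 for each). Without wild-type library 3, 28 of the 32 partners had a higher fitted value in Ythdf2-/-, 0 were called, and the median was 0.31. Of all 13112 genes, 6791 were higher in that fit, with a median of 0.01.

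The other receptor-type phosphatases, 18 genes from outside the LAR type, were looked at as a comparison family. Of 15 tested, 9 had a higher and 6 a lower fitted value, with a median of 0.16 (0.24 without wild-type library 3), and 0 were called by edgeR (1 at an unadjusted p under 0.05, where 3.63% of all genes passed, and 0 by DESeq2). Ptprz1, the proteoglycan phosphatase of glia and progenitors, was by far the most abundant at 2707 to 4028 CPM, ahead of Ptpra (321.8 to 543.7 CPM) and Ptprg (141.8 to 172.8 CPM). Only Ptprr, a phosphatase that acts on MAP kinases, had libraries that did not overlap, 1 of 15 (6.67%, near the 5.24% of all genes). Without wild-type library 3 there were 5 higher and 1 lower (18.9% and 20.0% of all genes), and 12 of the 15 fitted values were higher (6791 of all 13112). Ptprr was at 2.65, 2.98 and 3.02 CPM in wild type and at 4.35, 3.998 and 4.67 CPM in Ythdf2-/- (log2 fold change 0.59, SE 0.241, edgeR adjusted p = 0.999). Ptprc, the leukocyte phosphatase CD45, and Ptprq had 0 reads in all 6 libraries.

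**Figure D5:**
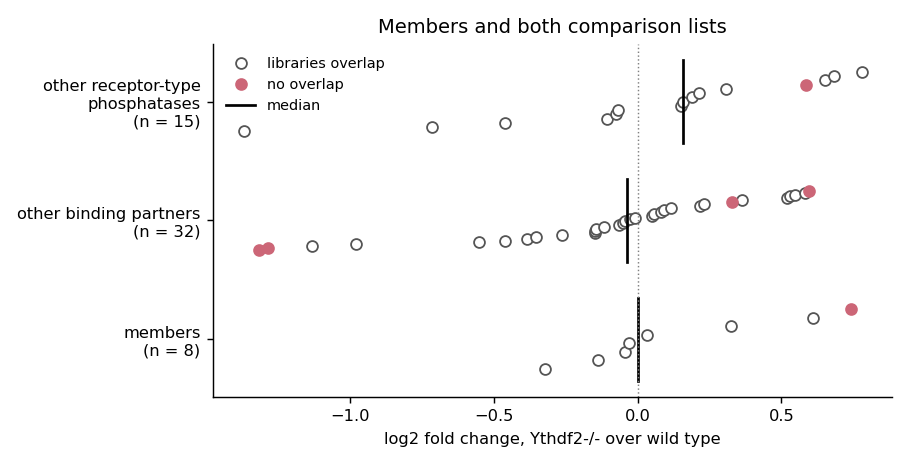
Fitted log2 fold change (Ythdf2-/- over wild type) of every tested gene of the members, the other binding partners and the other receptor-type phosphatases. Filled points are genes whose libraries do not overlap between genotypes. Vertical bars are medians, at 0.00 (-0.03 without Ptprd), -0.04 and 0.16. Genes lie on both sides of 0 in each row.

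Since Ythdf2 binds m6A, whose common sequence context includes the letters GGACT, the members' transcripts were searched for it. The search ran on the sense strand of the longest protein-coding GENCODE M21 transcript of each gene, and a match says nothing on whether the site is modified. Ptprd held 9 matches in 9899 bases, 0.909 per kb, and 41.3% of the 12288 tested genes with a transcript had a lower density. Ptprs held 10 matches (1.46 per kb), Ptprf 11 (1.44 per kb) and Ntrk3 25 in a transcript of 19703 bases (1.27 per kb). Il1rap had the highest density, 2.21 per kb, and Ppfia2 the lowest, 0.450 per kb. The median of all genes was 1.04 per kb, 93.4% of them held at least 1 match, and 7 of the 10 members lay above that median, with a median of their own of 1.45 per kb.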

How the data were processed

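Input RNA-seq was analysed for 3 wild-type and 3 Ythdf2-/- libraries. Groups and replicate numbers were taken from the sample labels. The authors used TopHat for alignment to mm10, and the raw counts they deposited, whole reads per gene, are not normalized. The submitters' processing notes also name Bowtie2 2.2.9, RSEM 1.2.15 and featureCounts, and the strand setting and the treatment of multi-mapped reads are not given in the sources used here. The authors also deposited expected counts, TPM and FPKM for each library. The deposited expected counts summed to 1.97 to 2.40% of the raw counts and gave each member at most 11 reads, so the deposited FPKM values were used only in alternatives, and the deposited TPM values were not used.

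The filter filterByExpr kept 13112 genes. On these, edgeR 4.0.16 (R 4.3.3) fitted genotype alone with TMM factors, glmQLFit (robust) and glmQLFTest, and p-values were adjusted by Benjamini-Hochberg over all 13112. SE is the absolute log2 fold change divided by the square root of F. DESeq2 1.42.0, limma 3.58.1 (voom, with and without quality weights, and on log2(FPKM + 1) and log2(FPKM + 0.1)), RLE factors, other filters, a replicate block, a term for Y-linked reads (sum above 3) and each library left out in turn were the alternatives. The fits were checked on simulated counts. Log2 CPM used a prior count of 2. Positions and exon lengths came from RefSeq (GRCm38.p6).

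The members and gene lists were chosen with earlier results of these data known. Named genes were all members, Ythdf2, the 3 most abundant of each list, in both comparison lists also each gene called and the 3 of largest change without overlap, and the 5 most like Ptprd. One marker gene that this rule names is not reported here. Slitrk2 was also named for its libraries after its values were seen, as were Ptprc and Ptprq. The labels do not say whether replicate numbers pair the libraries. The correlation of deviations from the group means was -0.25, -0.24 and -0.39 for the same-numbered pairs. It ran from -0.19 to 0.40 for the others. With 3 libraries in each group and wild-type library 3 apart, these values cannot decide it.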

Additional observations from a re-analysis of the deposited data

How the results depend on the processing

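The counts of called members other than Ptprd, other binding partners and other receptor-type phosphatases were 0 under the alternatives run. The exception was 1 member, Ntrk3, called with quality weights (log2 fold change 0.75). With the replicate number as a block, Ntrk3 was at 0.57 and no call was gained or lost. The labels do not say whether the numbers pair the libraries. The median of the members moved to 0.49 without wild-type replicate 3 and ran from -0.22 to 0.49 when each library was left out; calls stayed at 0 there. Leaving out wild-type replicate 3, an alternative chosen after seeing the data for the overlap of libraries, raised the members other than Ptprd without overlap from 0 to 3. On log2(FPKM + 1) and log2(FPKM + 0.1), with at most 11 reads for a member, the median was 0.41 and 0.74, and the signs turned for Ptprd (-0.29 and -1.08), Ptprs (-0.52 and -0.66), Ptprf (0.41 and 0.74), Ppfia3 (0.43 and 1.31) and Il1rap (0.56 and 0.86). Ptprd was listed at 0 in 5 of the 6 FPKM tables, so its value there rests on 2 reads, and Ppfia2, listed at 0 in each, has none. From the raw counts Ptprd ran from 0.55 to 0.94, Ntrk3 from 0.36 to 0.84 and Il1rap from -0.70 to -0.09 when each library was left out. Values near 0 changed sign elsewhere. Ptprs was at -0.16 with the term for Y-linked reads and ran from -0.20 to 0.47 when each library was left out. Ptprf ran from -0.25 to 0.033 and Ppfia2 from -0.23 to 0.79 in the same way. Ppfia3 ran from -0.27 to 0.51, and was at 0.084 with limma-voom, 0.39 with quality weights and 0.068 with the replicate block. Ppfia1 kept its sign in all 16 alternatives, at -0.30 and -1.07 on the FPKM scales, where Ntrk3 was at 1.04 and 2.13. The cause of these changes was not tested. The FPKM scales rest on fewer reads, and the fits that leave a library out rest on fewer libraries. For 1 gene in 3 libraries against 3, the smallest p of an exact permutation test is 0.1.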

Other observations

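The sum of the astroglial markers was 18297 CPM in wild-type library 3, 15309 CPM in Ythdf2-/- library 1 and 5595 CPM in Ythdf2-/- library 2, with the other 3 between 8759 and 10670 CPM. The most abundant of them were Apoe (1598 to 4618 CPM), Slc1a3 (1407 to 3743 CPM) and Sparcl1 (148.9 to 1800 CPM). The 3 most abundant neuronal markers were Map2, Mapt and Rtn1, and Mapt was at 222.7 to 510.9 CPM. Of the oligodendrocyte lineage, Olig1 was lowest in wild-type library 3, at 547.1 CPM against 874.4 to 1250 CPM in the other 5, and so was Olig2, at 323.8 CPM against 416.7 to 514.0 CPM.

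Markers of cell types from outside the neural lineage were low. The microglia and macrophage markers, led by Cd68, Mpeg1 and Cx3cr1, summed to 5.88 to 9.01 CPM, and Ptprc, C1qa, C1qb and C1qc had 0 reads in all 6 libraries. The endothelial markers, led by Kdr, Tek and Flt1, summed to 1.28 to 4.11 CPM, with Cldn5 at 0 reads. The mesenchymal markers, led by Pdgfrb, Twist1 and Acta2, summed to 3.63 to 7.40 CPM in 5 libraries and to 32.9 CPM in wild-type library 3, where Pdgfrb was at 31.8 CPM. The part of these lists in the members' values was not tested.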
